A study of Mus musculus with 2 samples.

Results

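The 8 S100 genes S100a1, S100a4, S100a6, S100a8, S100a9, S100a10, S100a11 and S100a13 were followed in tumour-infiltrating monocytic myeloid-derived suppressor cells (M-MDSCs) of mice on a normal-salt diet (NSD) or a high-salt diet (HSD). They were chosen by name, and every non-control probe whose transcript identifier belongs to one of them was used, which gave 10 probes among the 27223 probes that could be named and 8 genes among 20653. Both groups were female mice of the strain spelled BABL/c in the labels, aged 6 to 8 weeks according to the methods, that had received 1000000 cells of the 4T1 line, a mouse mammary carcinoma line, under the skin of the armpit. The NSD held 0.4% NaCl in the chow and came with tap water, the HSD held 4% NaCl in the chow and came with 1% NaCl in the drinking water, and both were given for 16 days. M-MDSCs, defined by the study as CD11b+Ly6-C+ cells, were taken from digested tumours with magnetic beads, mixed in equal numbers over the mice of a diet, and their RNA was hybridised to 1 Agilent array for each diet. A diet was therefore represented by 1 pooled value for each probe, the spread between mice is unknown, and the diets could not be tested against each other.

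S100 proteins are small calcium-binding proteins with paired EF-hand motifs that mostly work as dimers. Inside the cell they bind targets such as annexins and myosin when calcium rises, and several are released to act on receptors of neighbouring cells. In myeloid cells S100A8 and S100A9, which together form calprotectin, are known as abundant cytosolic proteins of neutrophils and monocytes and are widely used as markers of MDSCs.

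The 8 listed genes lie on mouse chromosome 3. In the RefSeq annotation of assembly GRCm38.p6, 12 S100 genes from S100a1 to S100a9 follow each other in 1 cluster, 6 of the 8 listed genes among them. S100a11 and S100a10 lie together farther along the chromosome, with 56 protein-coding genes between them and the cluster. S100a1 and S100a13 are head-to-head neighbours on opposite strands, and their annotated genes overlap by 98 bases. The promoter windows of 4 genes are shown, each with 250 bases before and 50 bases after an annotated start, from RefSeq on GRCm38.p6 and written 5′ to 3′ on the strand of the gene. S100a1 and S100a13 are given because they share this stretch of DNA while their signals differed in how they compared between the diets, and S100a8 and S100a9 because they encode the calprotectin pair. Capitals mark the motif matches described after the sequences.
S100a1, chr3:90514281-90514580, strand -: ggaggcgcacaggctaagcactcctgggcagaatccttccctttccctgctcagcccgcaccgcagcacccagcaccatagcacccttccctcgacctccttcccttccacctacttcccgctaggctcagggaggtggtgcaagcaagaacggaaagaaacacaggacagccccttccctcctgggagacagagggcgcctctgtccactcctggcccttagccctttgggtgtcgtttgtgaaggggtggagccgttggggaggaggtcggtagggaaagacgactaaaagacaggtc
S100a13, chr3:90514185-90514484, strand +: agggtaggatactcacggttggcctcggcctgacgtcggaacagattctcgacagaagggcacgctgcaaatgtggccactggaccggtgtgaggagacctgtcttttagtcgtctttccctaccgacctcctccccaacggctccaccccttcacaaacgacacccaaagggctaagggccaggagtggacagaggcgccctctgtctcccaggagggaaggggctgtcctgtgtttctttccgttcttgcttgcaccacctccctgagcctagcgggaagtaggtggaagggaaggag
S100a8, chr3:90668821-90669120, strand +: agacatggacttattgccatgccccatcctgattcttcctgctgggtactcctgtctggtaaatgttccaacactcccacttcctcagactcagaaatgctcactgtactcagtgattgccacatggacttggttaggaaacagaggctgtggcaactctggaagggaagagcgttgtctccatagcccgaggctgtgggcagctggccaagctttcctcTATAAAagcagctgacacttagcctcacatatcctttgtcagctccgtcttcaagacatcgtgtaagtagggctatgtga
S100a9, chr3:90695672-90695971, strand -: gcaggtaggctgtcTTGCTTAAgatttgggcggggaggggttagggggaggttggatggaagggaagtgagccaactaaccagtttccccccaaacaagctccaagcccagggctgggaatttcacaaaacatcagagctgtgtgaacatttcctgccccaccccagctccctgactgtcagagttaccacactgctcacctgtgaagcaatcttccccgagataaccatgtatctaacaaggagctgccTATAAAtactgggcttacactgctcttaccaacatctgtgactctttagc

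The windows of S100a1 and S100a13 share 204 bases, read in opposite directions, and the start sites used for these windows are 105 bases apart. They are rich in G and C, with 61.0% in S100a1 and 59.3% in S100a13, against a median of 52.7% over all 32851 promoter windows of the table, and hold 11 and 14 CG pairs against a median of 7. The windows of S100a8 and S100a9 hold 50% and 51.3% G and C, with 4 and 2 CG pairs. A TATA box (TATAAA) was found 30 to 25 bases before the start of S100a8 and at bases 1 to 6 after the annotated start of S100a9, and S100a4 has one 31 to 26 bases before its start. The motif was searched on both strands and occurs in 13.6% of all promoter windows. A C/EBP motif (TTGCNNAA) was found in the window of S100a9 alone among 7 listed genes with a window, and occurs in 10.8% of all windows. An AP-1 motif (TGANTCA), present in 7.81% of all windows, occurred only in that of S100a11, in 2 copies. Neither a STAT motif (TTCNNNGAA), present in 8.30% of windows, nor the NFAT core (TGGAAA), present in 21.4%, occurred in any of the 7 windows. These are matches of letters in a short window and say nothing of binding.

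All 10 probes stood well above background in both groups, none was saturated or flagged, and no S100 probe had more than 1 spot. Signals are given in intensity units as Feature Extraction processed them, NSD first. The log2 fold change compares HSD with NSD, positive where HSD was higher, after each array was set to its own 75th percentile, which adds 0.11 to the log2 ratio of the signals. Feature Extraction attached an error of about 10% to each of these signals, which makes an error of 0.20 or 0.21 on each log2 fold change. This error was nearly the same for dim and bright S100 probes, at 10.0% or 10.1%, and does not cover the differences between mice. For comparison, repeated spots of 1 probe on an array had a median SD of 0.082 on the log2 scale, over 289 probes printed in up to 10 spots. Signals of different probes were not compared with each other.

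S100a1 was the only listed gene past 1.5-fold, the threshold of the study. It encodes a calcium sensor best known from heart and skeletal muscle. Its brighter probe read 318 with NSD and 578 with HSD, a log2 fold change of 0.97 (software error 0.20) or 1.96-fold. The dimmer probe had signals of 66.4 and 100, a log2 fold change of 0.71 (software error 0.21) or 1.63-fold. Both probes were thus higher in the HSD group, by several times the software error, which is no test of the diets. Under the other 7 ways of processing, the brighter probe lay between 0.87 and 1.00. The dimmer probe lay between 0.48 and 0.71 and was below 1.5-fold with the normexp background correction. This correction adds an offset of 50 intensity units to every signal, which by itself makes the fold changes of dim probes smaller. Over the whole array, 10.2% of probes passed this threshold upwards with HSD and 8.91% passed it downwards. Of the 10 S100 probes, 2 were higher and 0 lower. Counted by genes, 1 of 8 was higher and 0 lower, against 9.85% and 10.3% of all genes. A share of 1 in 8 is close to the background, and with 8 genes the absence of lower ones is no result about the family.

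S100a8 and S100a9, the subunits of calprotectin, differed by less than the software error. S100a8 read 57914 with NSD and 56478 with HSD. Its log2 fold change was 0.08, and it turned to −0.06 with quantile normalization and −0.07 with cyclic loess or in the deposited values. S100a9 had signals of 56112 and 51548. Its log2 fold change was −0.01, with a range of −0.16 to 0.02 under the other settings. All of these values were within the software error, and no direction is given.

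The signal of S100a6, also known as calcyclin, was 66254 with NSD and 61265 with HSD. The log2 fold change was 0.00, with values from −0.15 to 0.01 under the other settings. S100a11, a partner of annexin A1, had signals of 20626 and 22362, and its log2 fold change of 0.23 was slightly above the software error, with a range of 0.10 to 0.25. The probes of S100a6, S100a8, S100a9 and S100a11 had at least 20000 intensity units on both arrays. Among the 311 such probes, 5 (1.61%) passed the threshold in either direction, and the median size of the log2 fold change was 0.12. The highest signal on an array was 80181, far below the saturation value of 778180 that the scanner output gives.

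**Figure D1:**
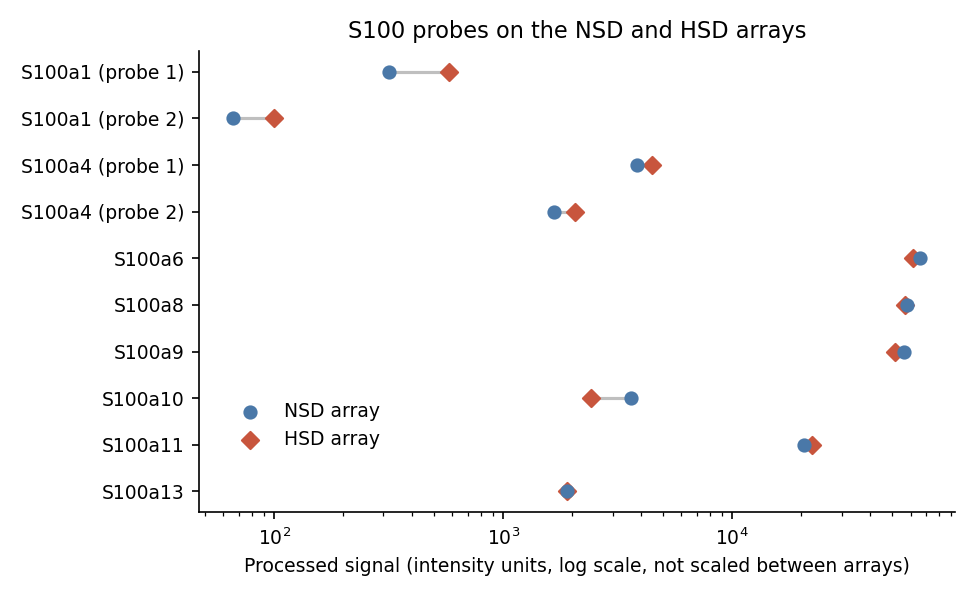
Processed signal of each S100 probe in intensity units on a log axis, as deposited and before scaling, with a circle for the NSD array, a diamond for the HSD array and 1 row for each probe. The symbols lie apart for S100a1, at 318 and 578 for the brighter probe, and for S100a10, at 3624 and 2428, and nearly cover each other for S100a8 and S100a13. Positions are to be compared within a row only.

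S100a10, the small subunit that binds annexin A2 and takes part in plasmin formation at the cell surface, was the listed gene with the lowest log2 fold change. It read 3624 with NSD and 2428 with HSD. The log2 fold change of −0.46 (software error 0.20), a fold change of 1.38, did not reach the threshold, and under the other settings it stayed negative and lay between −0.56 and −0.43. S100a4, known as metastasin and a binding partner of non-muscle myosin, was measured by 2 probes. The brighter one had signals of 3855 and 4445 and a log2 fold change of 0.32, and the other 1658 and 2052 and a log2 fold change of 0.42. Both were above 0 under every setting tried, with values from 0.22 to 0.43, and both remained below 1.5-fold. S100a13, which takes part in the release of FGF1 and IL-1α by a route that bypasses the endoplasmic reticulum, had signals of 1906 and 1891. Its log2 fold change of 0.10 was below the software error, with a range of 0.02 to 0.16. The difference of S100a1 was thus not accompanied by one of similar size in the gene it shares its promoter region with.

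**Figure D2:**
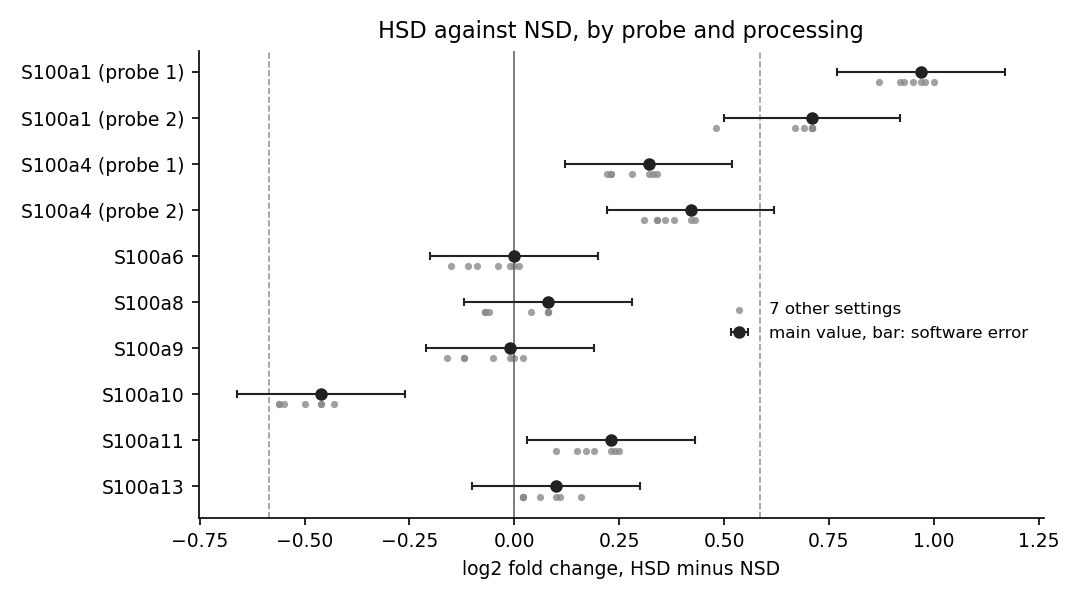
Log2 fold change of each S100 probe, HSD minus NSD, as a black point with the software error as a bar, and its values under the 7 other ways of processing as grey points. Dashed lines mark 1.5-fold in either direction, which only both S100a1 probes pass, the dimmer one not in every setting.

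Over the 8 genes, each taken by its brightest probe, the median log2 fold change was 0.09, against 0.05 over all genes measured. With cyclic loess the median of the 8 turned to −0.03, and that of all genes to −0.02. The median size of the log2 fold change without regard to sign was 0.17 for the S100 genes and 0.28 for all genes. The RNA came from mixed cells, so a difference in a transcript may stand for more or fewer cells of a kind or for more or less RNA in each cell, and these cannot be told apart.

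The family has further members on the array. Of 9 other S100 genes, 8 were above background with either diet and 7 have a fold change. Of these, 2 passed the threshold upwards and 1 downwards, beside 9.85% and 10.3% of all genes. With so few genes these counts are no result about the family. Their median log2 fold change was 0.19 and shrank to 0.01 with cyclic loess. S100a16, a widely expressed member, was the one that was lower. Its brighter probe fell from 4408 to 2348, a log2 fold change of −0.79, with a range of −0.89 to −0.73. Its other probe, at 14.4 and 10.4, had −0.36, and 0.11 with the normexp correction. S100z, with dim signals of 7.39 and 13, had a log2 fold change of 0.93, and of 0.15 with the normexp correction. S100a3, known from the hair cuticle, had signals of 63.2 and 88.0 and a log2 fold change of 0.59, just past 1.5-fold, and 0.36 with the normexp correction. S100a7a, a relative of psoriasin found in skin, had a log2 fold change of 0.39, S100a5 of 0.19 and S100a14, an epithelial member with signals of 9.23 and 6.20, of −0.46. The probes of S100g, the vitamin D-dependent calcium carrier of the gut, had −0.18 and −0.34. S100b, the member typical of glia, was not well above background with either diet, and S100a7l2, at 5.41 and 5.03, was so in the NSD group only and has no fold change.

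Next, the genes were read along the chromosome. In the cluster, where all 12 S100 genes had a probe, 2 passed the threshold upwards and 1 downwards, beside 9.85% and 10.3% of all genes. With 12 genes these counts are no result about the cluster. The median log2 fold change was 0.12. After S100a1 (0.97) and S100a13 (0.10), S100a14 (−0.46) and S100a16 (−0.79) were below 0, and the genes from S100a3 (0.59) to S100a8 (0.08) were at or above 0, S100a6 at 0.00, before S100a9 (−0.01), although S100a2, S100a6 and S100a8 were below 0 in some other settings. On the side of S100a1, the 5 nearest genes with a usable probe were Chtop, Snapin, Ilf2, Ints3 and Slc27a3, and only Snapin, which encodes a protein of vesicle trafficking, passed 1.5-fold, with signals of 580 and 342 and a log2 fold change of −0.65. On the side of S100a9, Pglyrp4, a peptidoglycan recognition protein, was not well above background with NSD (4.29) and read 7.91 with HSD. Its log2 fold change of 0.89 is therefore a lower bound. Pglyrp3, equally dim at 7.10 and 4.21, went the other way, with a bound of −0.58 that did not reach 1.5-fold. Lor (0.17) and Prr9 (0.20) also stayed below 1.5-fold.

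**Figure D3:**
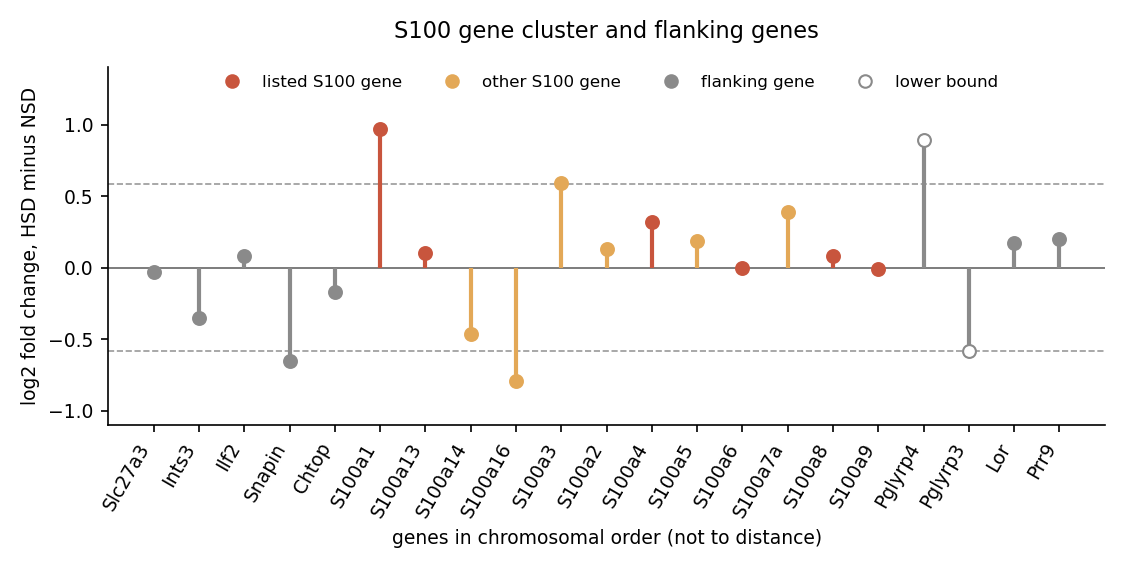
Log2 fold change, HSD minus NSD, of the S100 genes of the cluster and of usable genes on either side, in chromosomal order and not to distance. Red marks listed S100 genes, yellow other S100 genes, grey flanking genes, and an open circle a lower bound. S100a1 (0.97) and S100a16 (−0.79) are the highest and lowest genes of the cluster and lie close together.

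The receptors and partners of S100 proteins were examined. Of 11 genes for receptors and adaptors of secreted S100 proteins, 3 passed the threshold upwards and 1 downwards, where the shares of all genes were 9.85% and 10.3%, and the median log2 fold change was 0.29, beside 0.05 over all genes. Myd88, the adaptor of Toll-like receptors, read 2557 with NSD and 4937 with HSD, a log2 fold change of 1.06 (range 0.97 to 1.08). Cd14, the co-receptor of TLR4, had 2337 and 3804, a log2 fold change of 0.82 (range 0.72 to 0.82). Tlr4, a receptor of S100A8 and S100A9, was near the threshold, with signals of 781 and 1092 and a log2 fold change of 0.60, and was between 0.53 and 0.61 otherwise. Myd88, Cd14 and Tlr4 were higher in the HSD group, while S100a8 and S100a9, which encode ligands of TLR4, were nearly level. Of the whole list, 6 genes were above 0 and 5 below. Cd36, a scavenger receptor that binds S100A8/A9 carrying arachidonic acid, was lower, with signals of 334 and 97.6 and a log2 fold change of −1.66. Ager, which encodes the receptor RAGE, had dim signals of 11.6 and 8.88 and a log2 fold change of −0.27.

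Among intracellular partners, 14 of 16 genes were usable, of which 0 passed the threshold upwards and 4 downwards, again beside 9.85% and 10.3% of all genes, with a median of −0.01. The list also holds Plat, Plau and Plaur, genes of plasmin formation outside the cell. Plau was at 0.57 and Plaur at −0.18, and Plat was not usable. Anxa2, the partner of S100a10, had signals of 37443 and 39797 and a log2 fold change of 0.20, opposite in sign to S100a10. Ahnak, a giant protein that binds the complex of S100A10 and annexin A2, fell from 4091 to 2232, a log2 fold change of −0.76 that its 3 other probes shared, at −0.92, −0.60 and −0.57. Anxa1, the partner of S100a11, had probes at 0.03 and 0.37, and Anxa11, which binds S100A6, was at 0.28 with its brighter probe. Myh9, the myosin heavy chain bound by S100A4, had a log2 fold change of 0.17, and Cacybp, the calcyclin-binding protein, of −0.04. Of the cargo that S100A13 helps to release, Fgf1 had signals of 25.7 and 5.84 (log2 fold change −2.02) and Il1a of 33.2 and 16.3 (log2 fold change −0.91). With the normexp correction these dim probes were at −0.35 and −0.18, and the second probe of Fgf1, at 6.21 and 7.34, was at 0.35. Ppp5c, a phosphatase that S100 proteins activate, had signals of 358 and 195 and a log2 fold change of −0.76.

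Of 7 transcription factor genes known to act on S100a8 and S100a9, 0 were past 1.5-fold in either direction. Over all genes, 9.85% were higher and 10.3% lower, so with 7 genes this absence is no result about the factors. The log2 fold changes ran from −0.30 for Hif1a to 0.23 for Spi1, which encodes PU.1, with a median of 0.06, or −0.08 with cyclic loess. Cebpb, at 32792 and 35173, had 0.22, Stat3 had 0.22, Cebpd 0.06 and Cebpe, a factor of late granulocyte maturation, −0.06.

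**Figure D4:**
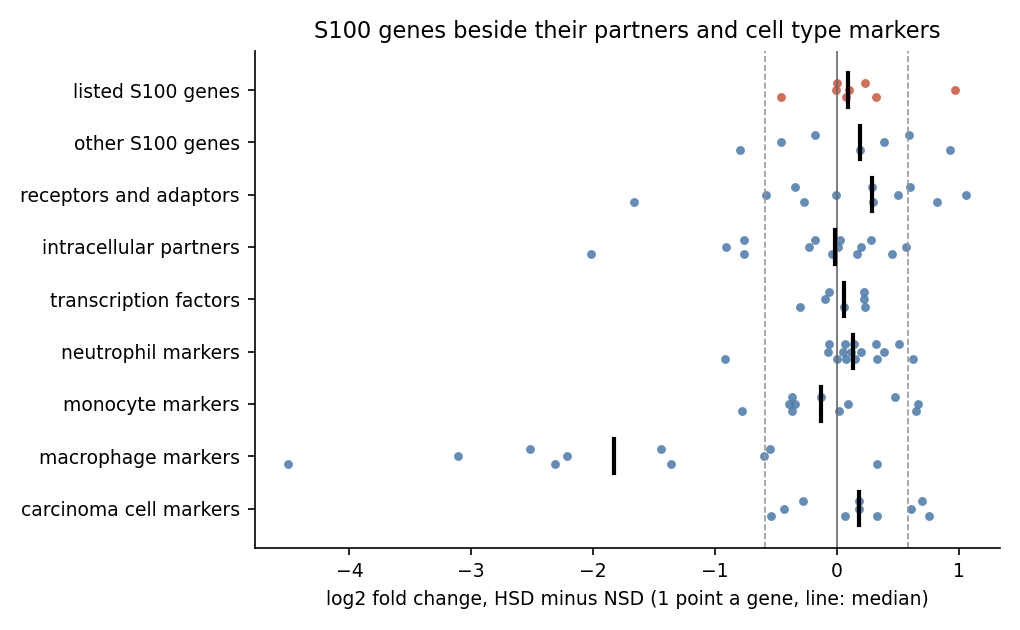
Log2 fold change, HSD minus NSD, of each gene of the S100 family, of the lists of its partners and of 4 lists of cell type markers, with 1 point for each gene and a black line at the median. Dashed lines mark 1.5-fold, and genes measured on 1 array only stand at their lower bound. The S100 genes lie around 0.09 and the neutrophil markers around 0.13, whereas macrophage markers lie around −1.82.

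The S100 genes are shared by many cell types, and markers of these were read from the same arrays. Defining genes of neutrophils, for which S100a8 and S100a9 are also typical, were plainly present in the cells labelled M-MDSCs. All 16 measured neutrophil markers stood well above background with either diet, and their signals summed to 471977 with NSD and 490473 with HSD. Csf3r, the receptor of granulocyte colony-stimulating factor, had signals of 53939 and 54723, and the granule gene Ltf 51766 and 51993. Asprv1 (0.63) was the only one past the threshold upwards, followed by Cxcr2 (0.51), and Mpo (−0.92) the only one downwards, followed by Elane (−0.07). Of all genes, 9.85% passed it upwards and 10.3% downwards. Asprv1 was as low as 0.50 in other settings, and 0 genes passed upwards with quantile normalization, cyclic loess or the deposited values. The median was 0.13, or −0.02 with cyclic loess, beside 0.08 for S100a8 and −0.01 for S100a9. Of 11 monocyte markers, 2 were higher (Vcan, 0.67, and Chil3, 0.65) and 1 lower (Ccr2, −0.78), with a median of −0.13. The shares of all genes were again 9.85% and 10.3%. With the median over a gene's probes, 1 monocyte marker was higher and 2 were lower. The dimmer probes of Ms4a4c were at −1.36 and −0.83, its brightest at −0.34. Only 1 monocyte marker was higher with the normexp correction, which put Vcan at 0.56. The same held with quantile normalization, cyclic loess or the deposited values, under which Chil3 was as low as 0.50. Itgam, which encodes CD11b, had signals of 31564 and 31043, and Ly6c1 had 51811 and 48478 with its brighter probe (log2 fold change 0.02) and 4649 and 3210 with the other (−0.42). The defining genes Ly6g and Ly6c2 were not analysed here.

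Macrophage markers were lower with HSD. Of 10 usable genes, 8 passed the threshold downwards, beside 10.3% of all genes, and 0 upwards, the median was −1.82, or −0.87 with the normexp correction, and the signals of the list summed to 25379 with NSD and 11921 with HSD. Mrc1, the mannose receptor, fell from 134 to 5.49 (log2 fold change −4.50, or −1.56 with the normexp correction), and C1qc, a subunit of complement C1q, from 52.6 to 5.61 (−3.11, or −0.74 with that correction). C1qb, another subunit, was the single one above 0, with 50.4 and 58.4 (0.33). Adgre1, a macrophage surface receptor, had 6723 and 4252 (−0.55) with its brighter probe. Their part in the values of S100a10, S100a16 and S100a1 was not tested. Of 10 usable carcinoma cell markers, 3 passed the threshold upwards and 0 downwards, beside 9.85% and 10.3% of all genes. The 3 had low signals, namely Epcam (14.5 and 21.8), Krt8 (8.68 and 12.2) and Krt18 (15.9 and 25.0). With the normexp correction Epcam, Krt8 and Krt18 were at 0.23, 0.17 and 0.34, and 0 genes passed. The median of the list was 0.18, with 7 genes above 0 and 3 below, namely Krt5 (−0.54), Cdh1 (−0.43) and Krt7 (−0.28). The signals of this list, apart from Lcn2, which neutrophils express as well, lay between 2.88 and 46.6 with NSD and between 2.21 and 30.8 with HSD, and their part in the higher S100a1 signal was not tested. The other lists had medians of 0.02 for dendritic cells, −0.55 for fibroblasts (−0.03 with the normexp correction and 0.02 with no filter on dim probes), 0.09 for endothelial cells, 0.06 for T and NK cells, 0.40 for B cells and −0.19 for erythroid cells. With the median over a gene's probes the endothelial median was −0.03. Of the endothelial genes, Kdr had 1 probe at 0.28 (150 and 169) and another at −2.49 (124 and 20.4). Col1a1 was at 89.1 and 77.2, Pecam1 at 90.8 and 99.1, Cd3e at 115 and 49.8, Cd79a at 27.7 and 37.4, and Hba-a1 at 10273 and 10843. Of the T and NK cell genes, 4 were above 0 and 3 below. Cd3e had a log2 fold change of −1.09, while Cd3d (1501 and 1871) had 0.43.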

How the data were processed

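The S100 genes and the lists of genes were chosen with earlier results of these data known. The authors deposited spot intensities extracted with Feature Extraction 11.0.1.1 that were background-subtracted and detrended but not scaled across arrays, together with the error the software gives each signal. Both arrays lay on 1 slide, and the design was annotated on an older assembly. The authors also deposited normalized log2 values made with GeneSpring, which served as an alternative. No column of per-sample values was left unused.

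Control spots and outlier spots were dropped, processed signals were put on the log2 scale, replicate spots were averaged, and each array was set to its 75th percentile, 252 intensity units for NSD and 233 for HSD. Transcript identifiers without versions were matched to RefSeq on GRCm38.p6, which named 69.1% of 39413 probes. A gene was represented by its probe with the highest mean signal, and was counted where that probe was well above background with either diet and at least 1.5-fold different. Where 1 array was not well above background, a lower bound was computed, taking for the dim side its own signal or, if larger, the smallest signal that was well above background, 4.61 with NSD or 4.39 with HSD. With 1 array per diet there is no p-value, and the precision is limited by the number of arrays.

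Genes were named by rule: all S100 genes, the partners of a listed gene, up to 4 genes of a process list in each direction past 1.5-fold, defining markers, and the extremes of the neutrophil and macrophage lists. Other marker genes, flanking genes and further partners were named after their values were seen. The alternatives were normexp background correction (offset 50, run on the median spot signal), 4 other scalings, the deposited values, outlier spots kept, 2 other filters, a 2-fold threshold and the median of a gene's probes. Counting at the threshold was tested on simulated data. Python 3.11.15, numpy 2.4.6, pandas 2.3.3, matplotlib 3.10.9, R 4.3.3 and limma 3.58.1 were used.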

Additional observations from a re-analysis of the deposited data

How the results depend on the processing

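No paired analysis was possible because each diet has 1 array, and for the same reason no replicate could be left out. Of 70 values of the 10 S100 probes under 7 other settings, 62 moved by less than 0.12 on the log2 scale. This bound is the SD between spots of a probe carried to a difference of 2 arrays. Median scaling and the 75th percentile of detected probes shift every probe by the same amount, and no S100 spot was flagged as an outlier. These settings and the keeping of outlier spots could thus hardly move single probes, so the count of 62 overstates the stability. With the normexp background correction, 1 S100 probe instead of 2 was at least 1.5-fold higher, 0 of the other S100 genes were higher and 2 intracellular partners were lower. At a 2-fold threshold, 0 S100 probes and 0 S100 genes were higher, 0 of the other S100 genes were higher and 0 lower, 1 receptor or adaptor gene was higher and 1 partner lower. Shares of all genes are given for the main setting only, so counts under other settings are no result about the lists. The median of the listed genes was −0.03 with cyclic loess, and that of the transcription factors −0.08. The median of the other S100 genes was 0.06 with the 75th percentile of detected probes, 0.04 with quantile normalization, 0.01 with cyclic loess and 0.04 in the deposited values. Over all genes the medians were 0.00, 0.01, −0.02 and 0.01, in the same order. Of the other S100 genes, 1 was higher with the detected percentile, 1 higher and 2 lower with cyclic loess, and 0 lower with the median over probes. Among receptors and adaptors, 2 genes were lower with the detected percentile, quantile normalization, cyclic loess and the deposited values, Mcam (−0.58) being the second, whose other probe (13.3 and 24.9) was at 1.01. Among partners, 1 gene was higher in the deposited values. The offset of the normexp correction makes the fold changes of dim probes smaller by construction, so its values are no test of their stability. The cause of the other shifts was not tested. Signals near background, as for S100z, set the limit of what could be measured.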

Other observations

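S100a2, which was not on the lists, read 119 with NSD and 120 with HSD, a log2 fold change of 0.13. The gene of the S100P-binding protein, S100pbp, was measured by 2 probes, which had signals of 108 and 155 (log2 fold change 0.63) and of 61.6 and 76.4 (log2 fold change 0.42). With the normexp background correction they were at 0.40 and 0.22.

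Among stromal genes, Acta2, which encodes smooth muscle actin, had signals of 1206 and 5660 and a log2 fold change of 2.34, with a range of 2.25 to 2.35 under the other settings, whereas Col3a1 (11.1 and 4.81) had −1.09 and Fap (58.7 and 21.4) had −1.34, or −0.05 and −0.58 with the normexp correction. B cell markers had log2 fold changes from 0.30 for Ms4a1 to 0.55 for Cd79a, and none of the 5 genes reached 1.5-fold.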
